A study of Mus musculus with 12 samples.

Results

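A set of 10 genes that respond to extracellular signal-regulated kinase (ERK) signaling was followed across 12 B16-F10 melanomas. They are the ETS factors Etv1, Etv4 and Etv5, the phosphatases Dusp4 and Dusp6, the Sprouty genes Spry1, Spry2 and Spry4, and the targets Phlda1 and Fosl1. The set was chosen by name as known ERK targets and feedback inhibitors. The rule that selected it used 1 measured value, the lower Etv4 level in obese mice that received isotype antibody. Earlier results of these data were known when the set was chosen. The members are 10 of 23420 genes in the deposited count table, and all 10 were among the 13095 genes that passed the filter on low counts. The comparison of obese and nonobese mice under isotype is therefore given as a description. The tests concern the mice that received anti–PD-1 and the responses to the antibody.

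The tumors grew from B16-F10 cells, a mouse melanoma line, injected under the skin of male C57BL/6J mice. Mice started a diet at 4 to 5 weeks of age and ate it for 15 weeks. Nonobese mice ate the control diet, and obese mice ate a Western diet that held 0.2% cholesterol. Once tumors were palpable, mice received 10 mg/kg of anti–PD-1 (clone 29F.1A12) or of the isotype control (clone 2A3) into the peritoneum 3 times a week, and tumors were collected on day 16. Crossing diet with antibody gave 4 groups of 3 tumors each, named here by diet and then antibody. All tumors derive from 1 cell line placed under the skin, no untreated mice were included, and P values measure the spread between these tumors.

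The ERK cascade runs from receptor tyrosine kinases through RAS, RAF and MEK to ERK, which phosphorylates transcription factors in the nucleus. ERK activity raises transcription of factors that carry the signal further and of inhibitors that turn it down, such as Sprouty proteins and dual-specificity phosphatases. These transcripts are commonly read together as a measure of pathway output, and the pathway is a main driver of growth in melanoma. ERK protein and its phosphorylation were not measured here.

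Total counts per tumor ranged from 14022929 to 33871843, from 17580835 upward in nonobese mice and up to 23349051 in obese mice. Levels are CPM, counts scaled to the size of each library, with TMM factors, given as mean ± SD with n = 3. Markers of melanoma cells were high in every tumor, with the 10 markers together between 35504.7 and 42302.6 CPM. Of 10 keratinocyte markers only 2 passed the filter, and Krt1 and Krt10 had 0 counts in all 4 groups. Over all tested genes, nonobese anti–PD-1 replicate 3 was the least like the other tumors, with a highest correlation of log2 CPM of 0.979 with any tumor, against 0.981 to 0.991 for the others. The tumors are bulk tissue, so fewer cells of a type and less RNA per cell cannot be told apart.

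The members spanned a wide range of levels. Per kilobase of annotated exon, the median over 12 tumors ran from 74.2 CPM for Phlda1, 50.0 for Dusp4 and 30.8 for Dusp6 to 0.730 for Etv1 and 0.227 for Fosl1. Spry2 (16.3 CPM per kilobase), Etv5 (12.2), Spry1 (6.63), Spry4 (3.34) and Etv4 (1.37) lay between. Among neighbors in this order, the range over tumors of Phlda1 (57.2 to 112.9) cleared that of Dusp4 (37.6 to 56.3), and Etv1 (0.585 to 1.00) cleared Fosl1 (0.05 to 0.451). Dusp6 (26.8 to 47.3) overlapped with Dusp4 and lay above Spry2 (12.4 to 22.1). The ranges of Spry2 and Etv5, of Etv5 and Spry1, of Spry1 and Spry4, and of Spry4 and Etv4 (1.03 to 3.33) overlapped, and Etv4 lay just above Etv1. Length counts the exons of all annotated transcripts together, 13296 bases for Etv1 and 3104 for Etv4. In CPM alone Etv1 averaged above Etv4 in every group but nonobese isotype, so their order here depends on this length.

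**Figure D1:**
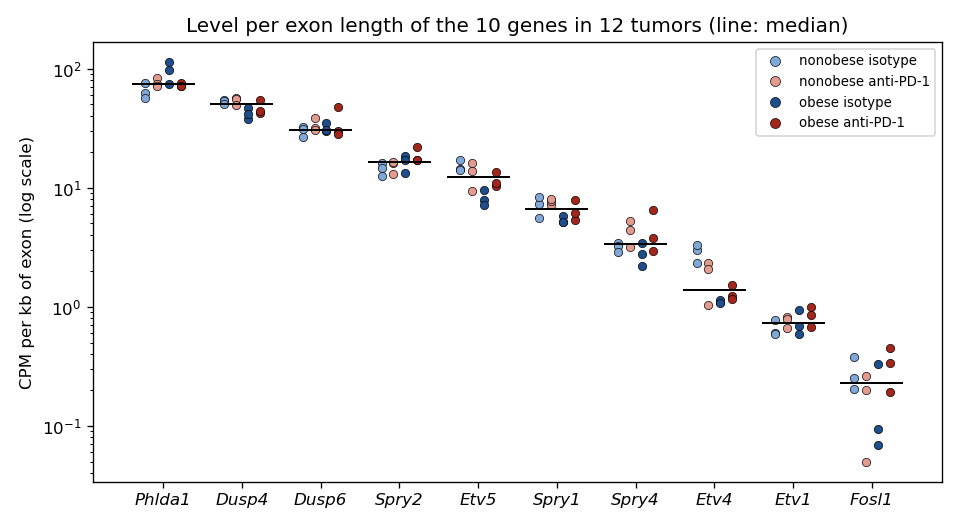
Level of each gene in CPM per kilobase of exon (log axis) in 12 tumors, colored by group, with a line at the median. Phlda1, Dusp4 and Dusp6 lead at 74.2, 50.0 and 30.8, and Fosl1 lies lowest at 0.227.

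Promoters were examined for shared motifs in the RefSeq table for GRCm38.p6. Windows were found for Etv1, Etv5, Dusp6, Spry1 and Spry2, and 7 windows of 300 bases were searched, each with 250 bases before and 50 after a start site. The upstream 250 bases are shown for the feedback inhibitors whose RefSeq start is also the first base of the GENCODE gene, with capitals on an E-box. Dusp6 lies at chr10:99262981-99263230 on the plus strand, Spry1 at chr3:37639697-37639946 on the plus strand, and Spry2 at chr14:105896820-105897069 on the minus strand.
Dusp6: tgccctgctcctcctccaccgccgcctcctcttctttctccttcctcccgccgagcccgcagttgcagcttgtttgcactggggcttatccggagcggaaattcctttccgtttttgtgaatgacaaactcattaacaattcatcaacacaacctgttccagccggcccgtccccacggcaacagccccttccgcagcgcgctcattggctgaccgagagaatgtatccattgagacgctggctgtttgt
Spry1: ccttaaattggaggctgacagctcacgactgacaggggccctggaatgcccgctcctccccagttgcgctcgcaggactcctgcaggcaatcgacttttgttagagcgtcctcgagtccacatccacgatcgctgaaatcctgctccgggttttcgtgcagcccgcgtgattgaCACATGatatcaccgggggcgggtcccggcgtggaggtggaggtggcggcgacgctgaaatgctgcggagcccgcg
Spry2: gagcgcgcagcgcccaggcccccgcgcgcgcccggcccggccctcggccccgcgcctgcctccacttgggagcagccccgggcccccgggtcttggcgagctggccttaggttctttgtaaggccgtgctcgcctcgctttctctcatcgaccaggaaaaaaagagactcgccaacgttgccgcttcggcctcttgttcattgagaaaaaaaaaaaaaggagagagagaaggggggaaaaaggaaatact
The ETS motif CCGGAAG was in 0 of these 5 genes' windows, against 8.86% of 32851 windows in the table. The AP-1 motif TGANTCA (7.81% of windows) and the CRE motif TGACGTCA (1.79%) were also in 0 of the 5 genes. The E-box CACGTG (7.15% of windows) was absent as well, and CATGTG (14.2%) was found in Spry1, with its first base 76 bases before the start, and in 1 of the 2 windows of Etv1, 45 bases before it. Both strands were read, and none of the other motifs overlapped these matches. A match here is a description of letters and not of a bound site.

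Etv4 and Etv5 had the same order of group means, and Etv1 did not. The 3 genes make up the PEA3 group of ETS factors, which bind DNA at promoters and enhancers. Etv4 (chr11:101769742-101785371, minus strand, GRCm38) stood at 9.25, 7.26 and 10.3 CPM in the nonobese isotype tumors and at 3.41, 3.57 and 3.34 CPM in the obese isotype tumors. With anti–PD-1 it stood at 7.27, 6.43 and 3.21 CPM in nonobese mice and at 3.81, 3.59 and 4.70 CPM in obese mice. Apart from nonobese anti–PD-1 replicate 3, which had the lowest value of all 12 tumors, every nonobese tumor lay above every obese tumor. By group, Etv4 was 8.95 ± 1.56 CPM in nonobese isotype, 5.64 ± 2.14 in nonobese anti–PD-1, 4.03 ± 0.587 in obese anti–PD-1 and 3.44 ± 0.116 in obese isotype tumors. In this order the nonobese isotype and nonobese anti–PD-1 groups overlapped, both obese groups lay within the range of the nonobese anti–PD-1 group, and the obese isotype tumors lay just below the obese anti–PD-1 tumors.

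Etv5 (chr16:22381309-22439719, minus strand) followed that order. It stood at 70.2, 58.6 and 58.2 CPM in nonobese isotype tumors and at 66.7, 57.1 and 38.3 CPM in nonobese anti–PD-1 tumors. Obese tumors held 32.5, 29.4 and 39.6 CPM with isotype and 55.6, 42.1 and 44.6 CPM with anti–PD-1. Every obese tumor lay below every nonobese isotype tumor, and nonobese anti–PD-1 replicate 3 was again the lowest nonobese tumor. Etv1 (chr12:38779380-38870484, plus strand) did not share this order. Its group means were 8.65 ± 1.38, 10.0 ± 1.08, 9.82 ± 2.39 and 11.2 ± 2.16 CPM in the nonobese isotype, the nonobese anti–PD-1, the obese isotype and the obese anti–PD-1 tumors, and the 4 groups overlapped.

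Fosl1 and Phlda1 are downstream targets, an AP-1 subunit and a protein with a pleckstrin homology-like domain. Fosl1 (chr19:5447547-5455946, plus strand) was near the limit of detection, with 2 to 24 counts per tumor. It measured 0.771, 0.411 and 0.511 CPM in nonobese isotype, 0.102, 0.402 and 0.535 in nonobese anti–PD-1, 0.673, 0.140 and 0.191 in obese isotype and 0.917, 0.393 and 0.684 CPM in obese anti–PD-1 tumors, and all groups overlapped. Its exons overlap with Ccdc85b on the opposite strand. Phlda1 (chr10:111506286-111508645, plus strand) was the most abundant member per length. It stood at 166, 138 and 126 CPM in nonobese isotype, 184, 164 and 156 in nonobese anti–PD-1, 217, 249 and 163 in obese isotype and 166, 158 and 158 CPM in obese anti–PD-1 tumors. Replicates 1 and 2 of the obese isotype group held the highest Phlda1 values of all 12 tumors.

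The feedback phosphatases remove phosphate from ERK, Dusp6 in the cytoplasm and Dusp4 in the nucleus. Dusp4 (chr8:34807297-34819894, plus strand) stood at 148, 145 and 138 CPM in nonobese isotype and 154, 152 and 136 CPM in nonobese anti–PD-1 tumors. It stood at 128, 103 and 113 CPM in obese isotype and 149, 117 and 121 CPM in obese anti–PD-1 tumors, so only obese anti–PD-1 replicate 1 reached the nonobese range. Dusp6 (chr10:99263231-99267489, plus strand) stood at 102, 83.8 and 96.9 CPM in nonobese isotype, 120, 99.1 and 95.8 in nonobese anti–PD-1, 93.8, 109.7 and 96.0 in obese isotype and 148, 94.2 and 88.3 CPM in obese anti–PD-1 tumors. All 4 groups of Dusp6 overlapped, and obese anti–PD-1 replicate 1 was highest.

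Sprouty proteins restrain signaling between receptor and RAF. Spry1 (chr3:37639947-37644598, plus strand) stood at 21.4, 24.1 and 16.1 CPM in nonobese isotype, 20.6, 22.5 and 23.5 in nonobese anti–PD-1, 15.1, 16.9 and 15.0 in obese isotype and 22.7, 15.6 and 17.9 CPM in obese anti–PD-1 tumors. Spry2 (chr14:105891947-105896819, minus strand) stood at 33.9, 26.0 and 30.4 CPM in nonobese isotype, 33.4, 34.2 and 27.2 in nonobese anti–PD-1, 27.6, 38.3 and 35.4 in obese isotype and 46.1, 35.9 and 35.9 CPM in obese anti–PD-1 tumors. Spry4 stood at 16.3, 15.5 and 13.8 CPM in nonobese isotype, 14.9, 24.7 and 21.0 in nonobese anti–PD-1, 10.5, 13.1 and 16.4 in obese isotype and 30.9, 17.8 and 13.9 CPM in obese anti–PD-1 tumors. On average Spry1 and Spry4 were lowest in obese isotype tumors, whereas Spry2 was lowest in nonobese isotype tumors. Exons of Spry1 and Phlda1 overlap with Gm42922 and Gm28592 on the opposite strand. The strand setting and annotation release of the counting were not stated. Counts of Fosl1, Phlda1 and Spry1 may therefore include reads of their partners or lack reads from the shared exons.

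A single tumor stood out across the members. Obese anti–PD-1 replicate 1 had the highest level of 5 of the 10 genes, Etv1, Fosl1, Dusp6, Spry2 and Spry4, and was among the top 4 tumors for 8 of them. It also had the lowest marker sums of its group for fibroblasts (470.9 CPM, against 1531 and 1952), macrophages (262.8, against 508.0 and 515.2), T and NK cells (5.64, against 25.6 and 16.9), endothelium (486.3, against 637.1 and 639.4) and skeletal muscle (46.3, against 290.1 and 662.1), and their part in its member levels was not tested. Results are therefore also given without it where it matters.

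**Figure D2:**
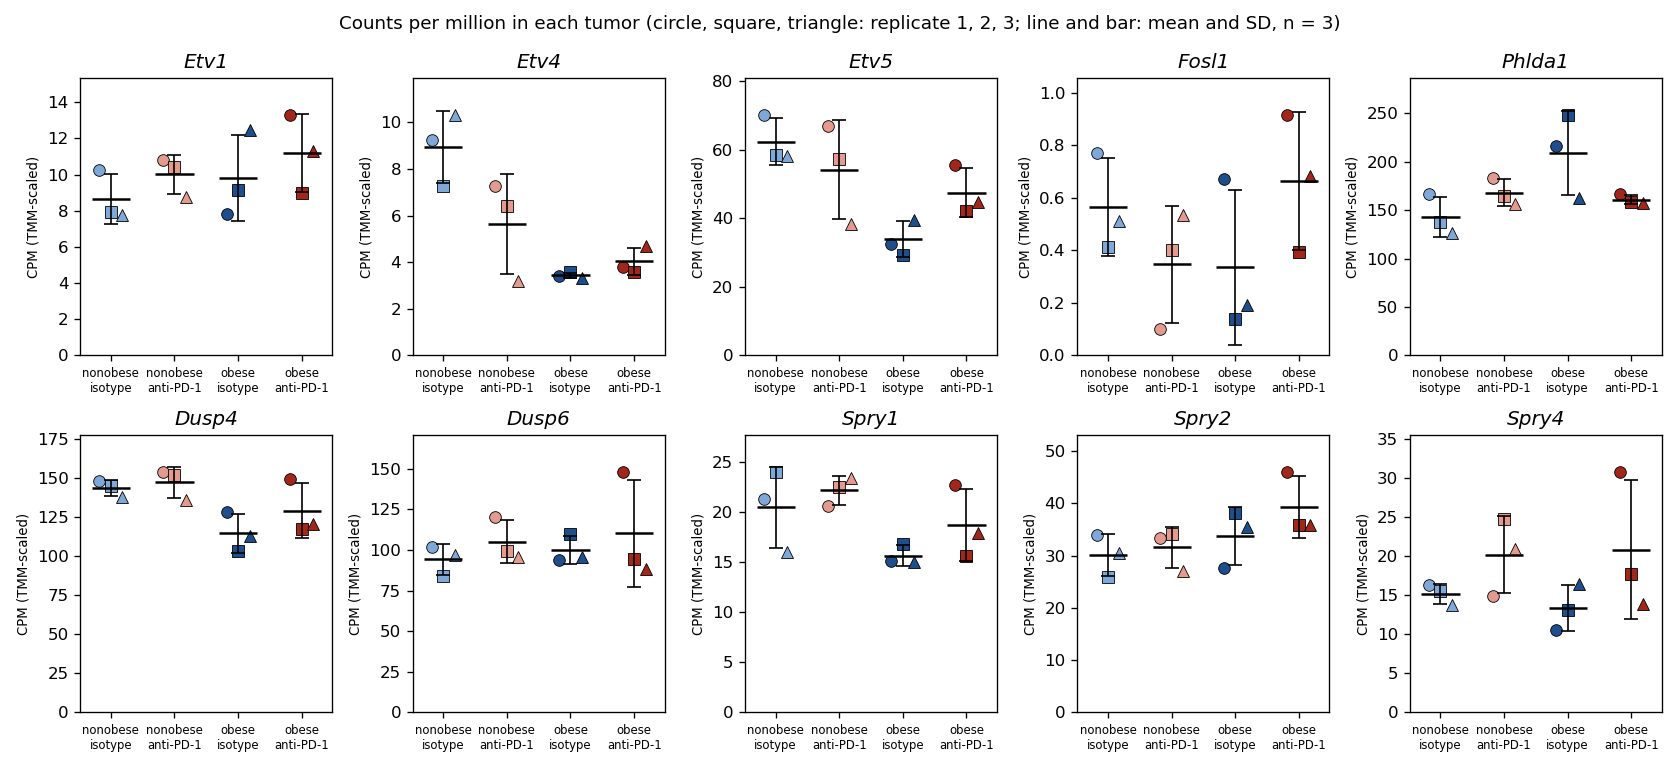
CPM of each gene in each tumor by group, with group mean and SD (n = 3), and symbols for replicates. Etv4 is 7.26 to 10.3 CPM in nonobese isotype and 3.34 to 3.57 CPM in obese isotype tumors, while Etv1, Fosl1 and Dusp6 overlap in all groups.

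Under isotype antibody, the comparison on which the set was selected, Etv4 had a log2 difference of -1.38 ± 0.28 (SE) between obese and nonobese mice, a 2.60-fold lower level. Etv5 differed by -0.88 ± 0.19 on the log2 scale, a 1.84-fold lower level, and Dusp4 by -0.33 ± 0.12. Obese tumors lay wholly below nonobese tumors for Etv4, Etv5 and Dusp4, 3 of the 10 members, where 9.02% of all tested genes did so, and nothing is read from this since the contrast was used in the choice. Spry1 (-0.40 ± 0.17), Spry4 (-0.19 ± 0.27) and Fosl1 (-0.68 ± 0.66) also had negative log2 differences, and the Fosl1 value ran from -1.73 to -0.37 when 1 tumor was left out, being lowest without obese isotype replicate 1. Phlda1 was on the other side at 0.54 ± 0.15, with Etv1 at 0.18 ± 0.21, Spry2 at 0.16 ± 0.16 and Dusp6 at 0.08 ± 0.17. With 1 tumor left out, Etv1 ran from -0.05 to 0.32, Dusp6 from -0.01 to 0.15, Spry2 from 0.05 to 0.27 and Spry4 from -0.39 to -0.06. The median log2 difference of the members was -0.26, against 0.01 over all tested genes. Summed endothelial markers also separated these groups, at 655.8 to 706.9 CPM in nonobese and 384.6 to 615.0 CPM in obese isotype tumors (10 of 10 markers, none at 0), as did adipocyte markers, at 32.0 to 74.6 and 23.0 to 31.5 CPM, and keratinocyte markers, at 1.99 to 14.6 and 0.420 to 1.85 CPM (Krt1 and Krt10 at 0 in both groups, Lor in nonobese and Dsg3 in obese tumors). Their part in the result was not tested.

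The same diets were compared in mice that received anti–PD-1, whose values the selection rule did not use. None of the 10 members differed between obese and nonobese mice by a fold change above 2 with unadjusted P below 0.05 in the edgeR quasi-likelihood F-test, against 4.25% of all tested genes. At an unadjusted P below 0.05 alone the count was 0 by edgeR, against 10.3% of all genes, and 0 by DESeq2, against 10.5%. At an FDR below 0.05 it was also 0 by both, against 0.382% of all genes by edgeR (50 genes, or 95 with the replicate block) and 2.06% by DESeq2. The member with the smallest P was Spry2, at a log2 difference of 0.31 ± 0.16, a 95% interval of -0.03 to 0.65 and an edgeR FDR of 0.534. All 3 obese tumors lay above all 3 nonobese tumors for Spry2, the only 1 of 10 members whose groups did not overlap, where 13.6% of all tested genes did so. With 1 tumor fewer the count was 4 without nonobese anti–PD-1 replicate 3 or obese anti–PD-1 replicate 1, and 3 without obese anti–PD-1 replicate 2. Separation is easier to reach with fewer tumors, and no share of all genes was counted in these smaller groups. Nothing is therefore read from the higher counts. Without obese isotype replicate 1, which is in neither of the compared groups, Spry2 had an unadjusted edgeR P of 0.0431. Its log2 difference ran from 0.19 to 0.37 when 1 tumor was left out.

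Etv4 differed by -0.48 ± 0.28 on the log2 scale with an interval of -1.08 to 0.11 (edgeR FDR 0.604), which includes both no difference and a 2-fold lower level. Etv5 differed by -0.19 ± 0.19, with an interval of -0.59 to 0.21 (edgeR FDR 0.817). Without nonobese anti–PD-1 replicate 3, which had low Etv4 and Etv5 and was the least like the other tumors over all genes, the log2 differences were -0.74 for Etv4 and -0.36 for Etv5, with unadjusted edgeR P values of 0.00425 and 0.0382, and neither reached a fold change above 2. Without nonobese anti–PD-1 replicate 1 they were -0.26 and -0.01. Dusp4 differed by -0.19 ± 0.12 (interval -0.44 to 0.06) and Spry1 by -0.25 ± 0.17 (-0.61 to 0.11). These became -0.30 and -0.40 without obese anti–PD-1 replicate 1, with unadjusted edgeR P values of 0.0228 and 0.0373, and -0.13 and -0.14 without obese anti–PD-1 replicate 2. The intervals of Etv1 (-0.29 to 0.61), Etv5, Phlda1 (-0.38 to 0.25), Dusp4, Dusp6 (-0.30 to 0.44), Spry1, Spry2 and Spry4 (-0.54 to 0.61) exclude a 2-fold difference. Fosl1 was at 0.88 ± 0.65 (0.49 to 1.28 when 1 tumor was left out), and its interval of -0.53 to 2.29 did not exclude one. Log2 differences were positive for 5 members and negative for 5, with a median of -0.01, against -0.01 for all tested genes. The members' median was -0.25 without obese anti–PD-1 replicate 1. These groups also separated by markers of T and NK cells (9 of 10 in the table, 0.508 to 2.72 CPM in nonobese and 5.64 to 25.6 CPM in obese tumors) and of macrophages (9 of 10, 153.5 to 224.1 and 262.8 to 515.2 CPM), and by adipocyte markers (22.4 to 37.6 and 62.2 to 129.0 CPM), with none of the markers found at 0. Their part in the member values was not tested.

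In nonobese mice, anti–PD-1 was compared with isotype for the 9 members other than Etv4, which was selected on the isotype tumors. None of the 9 passed the fold change and P thresholds, against 2.42% of all tested genes, and none had an unadjusted P below 0.05, against 5.23% of all genes by edgeR and 5.58% by DESeq2. None had an FDR below 0.05 by either tool, against 0% of all genes by edgeR and 0.0701% by DESeq2. The largest log2 differences were -0.67 ± 0.64 for Fosl1 and 0.41 ± 0.27 for Spry4 (edgeR FDR 0.935 and 0.929), and they ran from -1.07 to -0.28 and from 0.24 to 0.59 when 1 tumor was left out. Dusp4 differed by 0.03 ± 0.12, with an interval of -0.21 to 0.28, and Dusp6 by 0.16 ± 0.17, with an interval of -0.21 to 0.53. Dusp6 ran from 0.05 to 0.22 when 1 tumor was left out. None of the 9 had groups that did not overlap, where 11.2% of all tested genes did. Etv4 had a log2 difference of -0.66 ± 0.27, given with no test, and it was -0.40 without nonobese anti–PD-1 replicate 3. Sums of macrophage markers (228.7 to 501.6 CPM with isotype and 153.5 to 224.1 CPM with anti–PD-1) and endothelial markers (655.8 to 706.9 and 561.1 to 581.9 CPM) separated these groups, as did fibroblast markers (652.0 to 2899 and 313.6 to 598.7 CPM) and keratinocyte markers (1.99 to 14.6 and 1.25 to 1.86 CPM, with Krt1, Krt10 and Lor at 0 in both groups and Dsg3 and Ivl at 0 with anti–PD-1), and their part in the member values was not tested. Phlda1 differed by 0.23 ± 0.15, and its unadjusted edgeR P was below 0.05 only, among the alternatives tried, when nonobese isotype replicate 1 was left out.

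In obese mice, log2 differences between anti–PD-1 and isotype were positive for 8 of the 9 members other than Etv4, with a median of 0.22 against -0.01 over all tested genes. That median was 0.11 without obese anti–PD-1 replicate 1, where Dusp6 turned to -0.11, and 0.33 without obese anti–PD-1 replicate 2. None of the 9 passed the fold change and P thresholds, against 2.44% of all tested genes, and none had an FDR below 0.05 by either tool, against 0% of all genes by edgeR and 0.802% (105 genes) by DESeq2. An unadjusted P below 0.05 was reached by 3 of the 9 in edgeR, against 7.57% of all genes, and by 3 in DESeq2, against 7.97%. Etv5 was at 0.48 ± 0.19 (interval 0.08 to 0.89, unadjusted edgeR P of 0.0225, FDR of 0.548), and all 3 anti–PD-1 tumors lay above all 3 isotype tumors. It was the only 1 of the 9 members whose groups did not overlap, where 12.4% of all tested genes did so. The count was 2 to 4 when any of the 6 tumors was left out. The share of all genes was not counted in those smaller groups, where separation is easier to reach, so nothing is read from it. Spry4 was at 0.64 ± 0.27 (0.06 to 1.22, unadjusted edgeR P of 0.0338, FDR of 0.611), and Phlda1 was at -0.38 ± 0.15 (-0.70 to -0.06, unadjusted edgeR P of 0.0218, FDR of 0.546). The isotype tumors of this comparison entered the choice of the set through Etv4. Over the 12 tumors Etv5 resembled Etv4 (r = 0.83), so the P value of Etv5 is not independent of that choice.

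The values of Etv5, Spry4 and Phlda1 rested on few tumors. None of the 3 had an unadjusted P below 0.05 without obese isotype replicate 2. None did without obese isotype replicate 1 either (unadjusted edgeR P of 0.0516 for Etv5, 0.0635 for Phlda1 and 0.117 for Spry4), where Dusp4 (0.0396) and Fosl1 (0.0274) did instead. Phlda1 was at 0.0575 and 0.0574 without obese anti–PD-1 replicates 2 and 3. Only 1 of the 3 fell below 0.05 without obese anti–PD-1 replicate 1, where Spry4 was at 0.27 with an unadjusted edgeR P of 0.256. With the replicate block 2 of them did. Etv4 was at 0.23 ± 0.28, given with no test. The remaining log2 differences were 0.89 ± 0.67 for Fosl1 (0.58 to 1.94 when 1 tumor was left out), 0.26 ± 0.17 for Spry1, 0.22 ± 0.16 for Spry2, 0.19 ± 0.21 for Etv1, 0.17 ± 0.12 for Dusp4 and 0.14 ± 0.17 for Dusp6. With 1 tumor left out, Spry1 ran from 0.12 to 0.38 and Spry2 from 0.11 to 0.33. Etv1 ran from 0.06 to 0.41, Dusp4 from 0.07 to 0.27 and Dusp6 from -0.11 to 0.29. Without obese isotype replicate 1, Fosl1 was the 1 member to pass the fold change and P thresholds. Markers of T and NK cells separated these groups as well (1.60 to 2.53 CPM with isotype and 5.64 to 25.6 CPM with anti–PD-1), as did adipocyte markers (10 of 10, none at 0, 23.0 to 31.5 and 62.2 to 129.0 CPM). Their part in the member values was not tested.

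**Figure D3:**
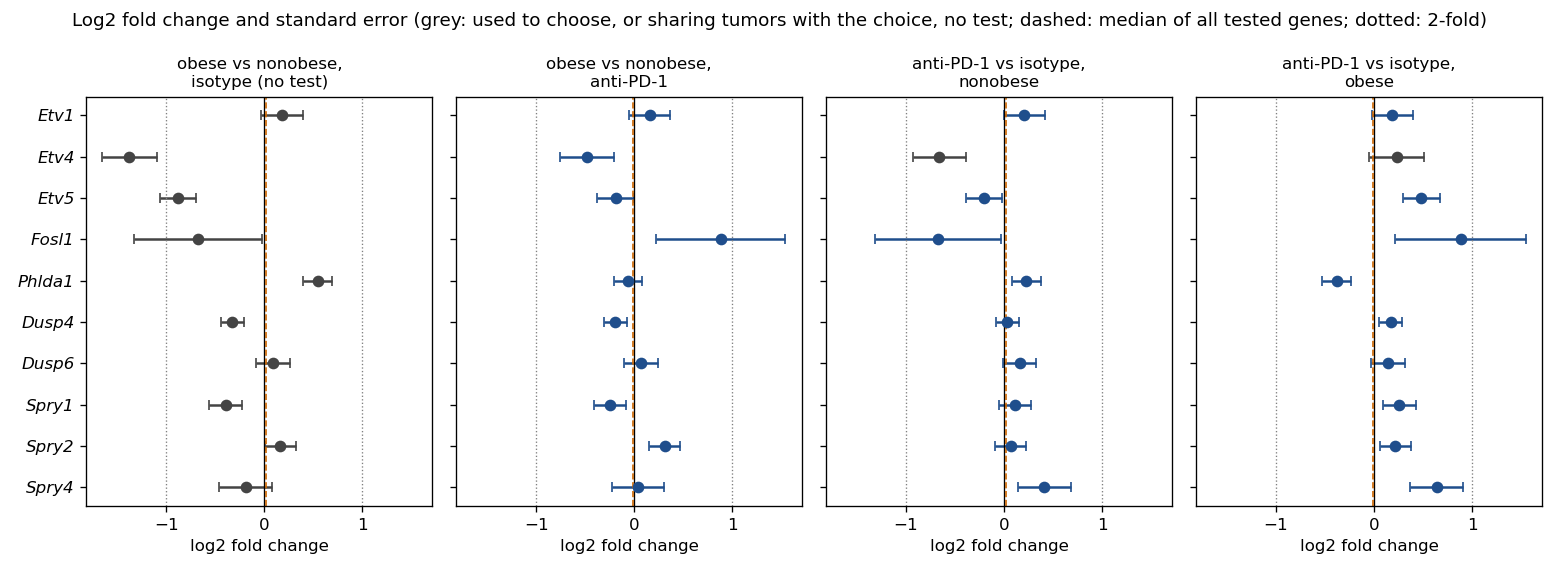
Log2 fold change and SE of each gene in 4 comparisons. Etv4 and Etv5 lie at -1.38 and -0.88 under isotype (grey, no test) and at -0.48 and -0.19 with anti–PD-1, and 8 of the 9 genes other than Etv4 lie right of 0 for anti–PD-1 in obese mice.

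The difference between the 2 responses to anti–PD-1, obese minus nonobese, asked whether the antibody moved a gene differently with diet. It uses the isotype tumors on which the set was selected, so Etv4 (0.90 ± 0.39, or 0.65 without nonobese anti–PD-1 replicate 3) is described only. Of the other 9 members none passed the thresholds, against 5.76% of all tested genes, and none had an FDR below 0.05 by either tool, against 0% of all genes by edgeR and 2.16% (283 genes) by DESeq2. An unadjusted P below 0.05 was found for 2 of the 9 by edgeR, against 12.9% of all genes, and for 2 by DESeq2, against 13.2%. Etv5 was at 0.69 ± 0.26 (0.12 to 1.26, unadjusted edgeR P of 0.0208, FDR of 0.296) and Phlda1 at -0.61 ± 0.21 (-1.05 to -0.16, unadjusted edgeR P of 0.0113, FDR of 0.249). Their log2 differences between diets were -0.88 and 0.54 under isotype, against -0.19 and -0.06 with anti–PD-1. Both P values therefore draw on the contrast used in the choice, and nothing is read from them. Etv5 had an unadjusted edgeR P of 0.0540 without nonobese isotype replicate 1. Without obese isotype replicate 1 the count past the thresholds was 1, the gene being Fosl1. The value of Fosl1 over all tumors was 1.56 ± 0.93, and it ran from 1.18 to 2.61 when 1 tumor was left out. That of Spry4 was 0.23 ± 0.38, and Etv1 and Dusp6 were each at -0.02, with SE of 0.30 and 0.24.

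The pathway around the members was read from lists of core cascade genes, receptors, ligands, other feedback inhibitors and other targets, of which 106 of 107 genes were in the table and 92 were tested. Of the 21 tested core genes 0 passed the thresholds in any of the 4 tested comparisons, and 0 had an unadjusted P below 0.05, both by edgeR and by DESeq2. By edgeR 10.3% of all genes had such a P between diets with anti–PD-1, 5.23% in nonobese mice, 7.57% in obese mice and 12.9% in the difference between responses. Braf, which phosphorylates MEK, averaged 56.5 ± 5.09 CPM in nonobese isotype, 59.9 ± 6.38 in nonobese anti–PD-1, 54.6 ± 8.50 in obese isotype and 55.5 ± 5.27 CPM in obese anti–PD-1 tumors. Obese and nonobese mice with anti–PD-1 differed on the log2 scale by -0.11 ± 0.13 in Braf, by -0.03 ± 0.14 in Map2k1 (MEK1) and by 0.11 ± 0.14 in Mapk3 (ERK1). The RAS gene Nras differed by -0.12 ± 0.16. The ligands (11 of 17 tested), the other feedback inhibitors (17 of 18) and the other targets (30 of 32) also had 0 genes past the thresholds in the 4 comparisons by either tool. At most 2 genes per list and comparison had an unadjusted P below 0.05 by edgeR, and at most 3 by DESeq2.

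Among the other targets, the cyclin Ccnd1 averaged 323 ± 24.6 and 320 ± 43.1 CPM in nonobese isotype and anti–PD-1 tumors and 269 ± 35.0 and 267 ± 25.9 CPM in obese ones. Its log2 difference between diets with anti–PD-1 was -0.26 ± 0.13 (edgeR FDR 0.526). The immediate early genes Egr1 and Fos, which ERK induces within minutes of stimulation, differed by 0.52 ± 0.31 and 0.36 ± 0.17 in the same comparison (edgeR FDR 0.624 and 0.520). The receptor Epha2, itself an ERK target, differed by -0.21 ± 0.30. Of the 30 tested targets 19 had positive and 11 negative differences there, with a median of 0.05 against -0.01 for all tested genes. Targets thus lay on both sides of 0, as the members did.

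Receptor tyrosine kinases were the list in which genes passed the thresholds, 13 of 17 being tested. With anti–PD-1, 4 of the 13 were higher in obese than in nonobese mice, 3 were lower with anti–PD-1 than with isotype in nonobese mice, and in obese mice 1 was higher and 1 lower with anti–PD-1. Over all 92 list genes this is 4.35%, 3.26% and 2.17%, beside the 4.25%, 2.42% and 2.44% of all tested genes. All of these calls were receptors, so their share of the 13 receptors was higher, and the receptors were not tested as a set. No list gene had an FDR below 0.05 by edgeR. By DESeq2 1 did, Axl, between diets with anti–PD-1, between antibodies in obese mice and in the difference between responses. Axl, the receptor for Gas6, averaged 43.6 ± 5.98 CPM in nonobese isotype, 24.4 ± 7.32 in nonobese anti–PD-1, 27.5 ± 9.86 in obese isotype and 65.9 ± 23.1 CPM in obese anti–PD-1 tumors. Its log2 difference between diets with anti–PD-1 was 1.43 ± 0.30 (unadjusted edgeR P of 0.000368, FDR of 0.0699), and between anti–PD-1 and isotype in obese mice 1.26 ± 0.30 (unadjusted edgeR P of 0.00108, FDR of 0.220). Both unadjusted P values stayed below 0.05 whichever tumor was left out.

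A further 3 receptors were low and moved the same way between diets with anti–PD-1: the epidermal growth factor receptor Egfr (1.77 ± 0.62), the neurotrophin receptor Ntrk2 (2.27 ± 0.74) and the platelet-derived growth factor receptor Pdgfra (1.40 ± 0.62), with edgeR FDR of 0.311, 0.259 and 0.452. In nonobese mice their log2 differences between anti–PD-1 and isotype were -1.63 ± 0.62, -1.75 ± 0.74 and -1.54 ± 0.62, with edgeR FDR of 0.859, 0.912 and 0.881. These calls rested on single tumors: between diets the count of receptors fell from 4 to 2 without nonobese anti–PD-1 replicate 1 and to 1, Axl, without obese anti–PD-1 replicate 3, and in nonobese mice from 3 to 0 without nonobese isotype replicate 3 or nonobese anti–PD-1 replicate 1 and to 1 without nonobese isotype replicate 2. Ntrk2 in nonobese mice also lost its call with the current glmQLFit (-1.59, unadjusted edgeR P of 0.0568). It was not called either in a model of the compared groups only. Ntrk3 averaged 4.67 ± 0.385 CPM in obese isotype and 2.03 ± 0.137 CPM in obese anti–PD-1 tumors, a log2 difference of -1.20 ± 0.41 (edgeR FDR 0.473). In the difference between responses, 4 receptors were above and 1 below, with Axl at 2.09 ± 0.43 (edgeR FDR 0.117) and Ntrk3 at -1.38 ± 0.59 (edgeR FDR 0.342), which makes 5.43% of the list genes against 5.76% of all tested genes. With the replicate block Ntrk3 had an unadjusted edgeR P of 0.0533, which left 4 receptors, and its P was also above 0.05 without any 1 of 9 of the tumors. That count of 5 was 2, Axl and Egfr, without nonobese anti–PD-1 replicate 1 or obese anti–PD-1 replicate 3, and 3 when each of these was left out in turn: nonobese isotype replicates 2 and 3, nonobese anti–PD-1 replicate 2, obese isotype replicate 2 and obese anti–PD-1 replicate 2. Pdgfra is also in the list of fibroblast markers, whose sum ran from 652.0 to 2899 CPM in nonobese isotype, 313.6 to 598.7 in nonobese anti–PD-1, 242.6 to 1165 in obese isotype and 470.9 to 1952 CPM in obese anti–PD-1 tumors. Between diets with anti–PD-1 these sums overlapped, whereas those of macrophages (153.5 to 224.1 and 262.8 to 515.2 CPM), of T and NK cells (0.508 to 2.72 and 5.64 to 25.6 CPM) and of adipocytes (22.4 to 37.6 and 62.2 to 129.0 CPM) did not, and the part of these markers in the receptor values was not tested.

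**Figure D4:**
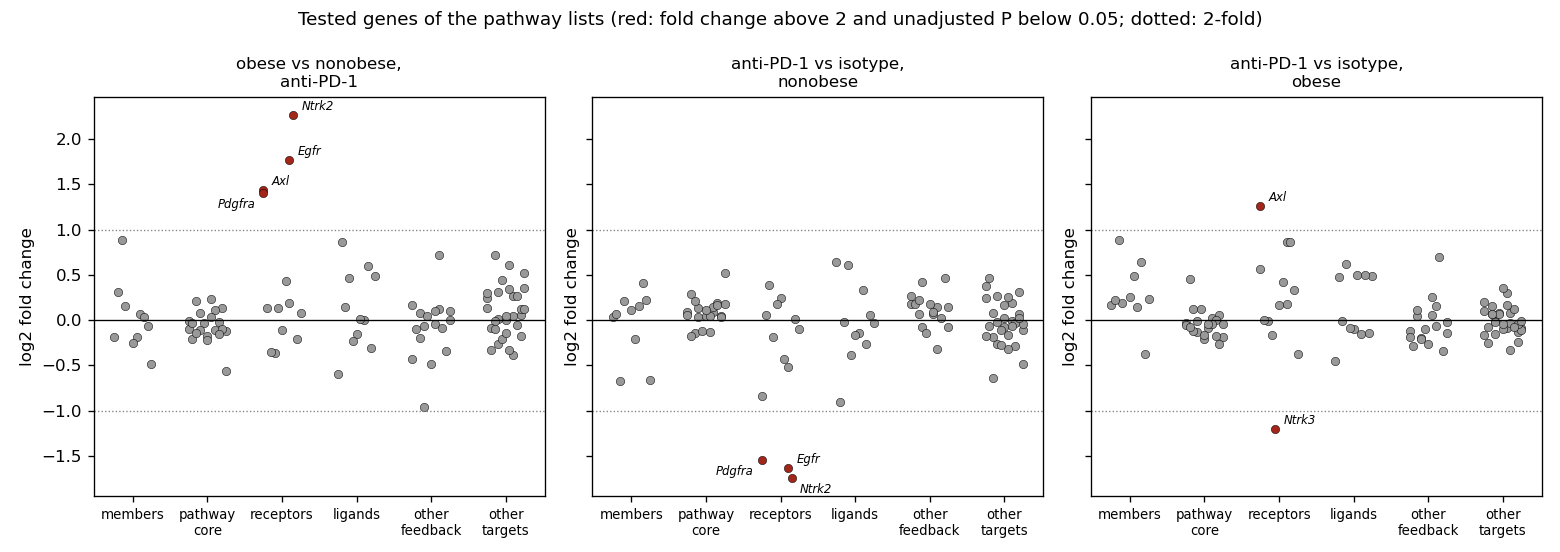
Log2 fold change of each tested member and pathway gene, by list, in 3 comparisons, with genes past the thresholds in red. The red points are all receptors, 4 with anti–PD-1 between diets, 3 in nonobese mice and 2 in obese mice.

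The genes whose log2 CPM most resembled Etv4 over the 12 tumors, among 13094 others, were Ccdc97 (Pearson r = 0.901), E130012A19Rik (0.892), Ftsj3 (0.887), Cdk11b (0.885) and Cdhr2 (0.885). Among the members, Etv5 was the most like Etv4, at r = 0.83 and rank 35 of 13094. Dusp4 followed at r = 0.62 and rank 672, while Dusp6 was at -0.09 and Phlda1 at -0.49. The genes most like Dusp6 were Sap30 (r = 0.92), Sccpdh (0.91) and Amacr (0.91), and among members Spry2 (0.71, rank 271), Etv1 (0.58, rank 999) and Spry4 (0.52, rank 1421), so many other genes resembled Dusp6 more than they did. The 12 tumors share 4 groups and a tumor that was high in Dusp6, Spry2, Spry4 and Etv1, so the values are a description over groups and not independent points. The Etv4 values include those on which the set was selected.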

How the data were processed

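RNA of 12 tumors was sequenced from stranded mRNA libraries as single-end reads. The authors checked reads with FastQC 0.11.5, aligned them to mm10 with STAR 2.7.0f, counted them per gene with HTSeq 0.9.1, used edgeR 3.28.1, per the study's methods and processing notes, and deposited raw counts without normalization. The annotation release and strand setting of the counting are not given in the sources used here. Depth per tumor is given with the levels. Reads had no molecular identifiers, so counts are not independent molecules.

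Each column was matched to a tumor by its label, with 0 columns left unused. With edgeR 4.0.16 (R 4.3.3), filterByExpr kept 13095 genes, which were scaled by TMM and fitted as 4 group means over all 12 tumors with 8 residual degrees of freedom. Contrasts were tested by the quasi-likelihood F-test (legacy=TRUE), FDR was Benjamini-Hochberg over all tested genes, and standard errors and 95% intervals came from the F statistic. The thresholds (more than 2-fold and unadjusted P under 0.05) follow the study's methods. Exon lengths and gene positions are from GENCODE M21 (GRCm38) and start sites from RefSeq (GRCm38.p6). The scripts were tested on simulated counts.

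The members and lists were chosen with earlier results of these data known. Named were all 10 members, fixed pathway genes (some are not reported here), up to 3 list genes past the thresholds per list and comparison, and the genes most like Etv4 (5) and Dusp6 (3). Deviations of same-numbered tumors from their group means were positively correlated in the 2 anti–PD-1 groups (r = 0.443, 0.111 and 0.351 across genes). In the 2 isotype groups they were not all so (r = -0.127, -0.181 and 0.201). Tumors with different numbers were not compared. The labels state no pairing and the numbers mark different mice, so the reported tests are unpaired and a replicate block was only an alternative. Alternatives were DESeq2 1.42.0, RLE scaling, other count filters, the current glmQLFit, models of the compared groups only, a replicate block, and leaving out each tumor.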

Additional observations from a re-analysis of the deposited data

How the results depend on the processing

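Over DESeq2, RLE scaling, 2 other filters, the current glmQLFit, models of the compared groups and the replicate block, 0 members passed the thresholds in any tested comparison, as reported. The filter on 10 counts in every tumor made 1 member (Spry2, log2 difference 0.33) reach an unadjusted P of 0.0455 between diets with anti–PD-1, and Fosl1 could not be tested there. With the replicate block Spry4 in obese mice was at 0.62 (unadjusted edgeR P of 0.0529), which left 2 members below 0.05 there, and the block ended the call of Ntrk3 in the difference between responses (-1.31, unadjusted edgeR P of 0.0533) and ended no other call of a named receptor and changed no other call of a member. Same-numbered tumors did not all deviate together in nonobese mice (r = 0.548, 0.00065 and 0.266) or obese mice (-0.153, -0.264 and 0.259). Near 0, the difference between responses turned positive for Dusp6 (0.0070 by DESeq2, 0.0067 by RLE, 0.035 with 10 counts) and Etv1 (0.0023, 0.0028 and 0.034); the cause was not tested. Leaving out each tumor, members past the thresholds numbered 0 to 1 in obese mice and in the difference between responses. Members with an unadjusted P below 0.05 numbered 0 to 2 between diets with anti–PD-1, 0 to 1 for the response in nonobese mice, 0 to 3 in obese mice and 1 to 3 for the difference. Members whose groups did not overlap numbered 1 to 4 between diets with anti–PD-1 and 1 to 4 in obese mice. No share of all genes was counted in the groups with 1 tumor fewer, so these ranges have nothing to be set against. Pathway list genes past the thresholds, an alternative chosen after seeing the data, numbered 2 to 4 between diets with anti–PD-1 (1 to 4 for receptors alone), 0 to 4 in nonobese mice, 2 in obese mice and 2 to 7 for the difference, and 2, 1 and 3 between diets, in nonobese mice and for the difference when 10 counts were required in every tumor. Log2 differences that changed sign in the tested comparisons ranged from -0.00039 to 0.069 (Dusp4), -0.033 to 0.24 (Spry1) and -0.028 to 0.17 (Spry2) in nonobese mice, -0.11 to 0.29 for Dusp6 in obese mice, -0.19 to 0.20 (Dusp6), -0.091 to 0.0041 (Phlda1) and -0.35 to 0.25 (Spry4) between diets with anti–PD-1, and -0.26 to 0.13 (Dusp6), -0.16 to 0.21 (Etv1) and -0.14 to 0.46 (Spry4) for the difference. Under isotype Etv1 and Dusp6 changed sign too. Over all genes, requiring 10 counts in every tumor gave 171, 160, 451 and 313 genes past the thresholds in nonobese mice, obese mice, the difference and between diets with anti–PD-1, against 317, 320, 754 and 557, and at least 1 count gave 508 in obese mice. Without a tumor they numbered 198 to 511, 223 to 576, 612 to 936 and 384 to 756, the 576 being without obese anti–PD-1 replicate 1. DESeq2 called 9, 105, 283 and 270 genes at an FDR below 0.05, against 0, 0, 0 and 50 by edgeR. Without a tumor edgeR gave 0 to 2, 0 to 76 and 0 to 197 in the first 3, with 76 and 197 without obese anti–PD-1 replicate 1, and in obese mice and the difference it gave 6 and 55 with at least 1 count and 2 and 11 with the block. For the comparison between diets the FDR count was 104 with at least 1 count, 87 with the current glmQLFit, 95 with the block, 0 with the compared groups only and 2 to 214 without a tumor. Among the members Fosl1 had the fewest counts, with 2 to 24 per tumor.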
